A study of Rattus norvegicus with 6 samples.

Results

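The genes described here are the claudins, cadherins, connexins and zonula occludens scaffolds, the families that build cell-cell junctions, in whole lung of rats given monocrotaline (MCT). Members were the rows of the deposited table whose gene symbol begins with Cldn, Cdh, Gja to Gje or Tjp followed by a digit, Tjp being the symbol of the zonula occludens genes. When a symbol had more than 1 row, the row with the highest mean count was kept. The rule took 73 of 23802 genes, made up of 28 claudins, 23 cadherins, 19 connexins and 3 zonula occludens genes. PolyA RNA was sequenced from 3 MCT lungs and 3 control lungs of male wild-type Sprague-Dawley rats of 200 to 250 g. MCT is a plant alkaloid that injures lung vessels and is used to produce pulmonary arterial hypertension, and it was given once at 60 mg/kg, 4 weeks before the lungs were taken. Control rats received an equal volume of saline subcutaneously. The labels give the MCT injection as intraperitoneal in one place and subcutaneous in another, so the route may have differed between the groups.

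Tight junctions seal the space between neighbouring cells and are built from claudins, which decide what may pass, and from zonula occludens proteins, which tie claudins to actin. Adherens junctions hold cells together through cadherins, and each kind of lung cell carries its own: E-cadherin in epithelium, VE-cadherin in endothelium and other cadherins in mesenchyme. Gap junctions are channels of connexins that couple the cytoplasm of neighbouring cells, as along the endothelium and the smooth muscle of arteries.

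Summed counts lay between 13525912 and 17916134 per sample. Within a group, no pair of samples agreed within counting error (chi-square divided by degrees of freedom 22.1 to 49.7), and each was kept as its own replicate. The labels do not state that every sample came from its own animal. The p-values therefore reflect only how these samples spread, and that spread may be technical. On the first principal component, MCT replicate 2 stood nearest the controls, at 24.2 against 63.6 and 39.1 for MCT replicates 1 and 3 and -45.0 to -37.0 for the controls. Lung identity showed in the alveolar type 2 markers, whose summed level was 14520 to 24041 CPM in MCT lungs and 25595 to 27659 CPM in control lungs. CPM here is the count scaled to library size (TMM). Whole lung holds many cell types, and fewer cells of a type cannot be told apart from less RNA per cell.

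Of the 73 members, 39 passed the filter on low counts and were tested, and 8 were called at an adjusted p under 0.05 (edgeR quasi-likelihood test, Benjamini-Hochberg adjustment over all 15250 genes tested). This was 20.5% of the tested members, beside 13.1% of all tested genes. Higher in MCT lungs were 5 members, beside 8.01% of all genes, among them Gja3, Cldn11, Gjc1 and Cdh11. Lower were 3 members, beside 5.11% of all genes, and these were Cdh3, Cdh5 and Gja4. By family the calls were 4 of 8 tested connexins, 3 of 12 cadherins, 1 of 16 claudins and 0 of 3 zonula occludens genes, of which 2 had an unadjusted p under 0.05 and DESeq2 called 1. The median log2 fold change was 0.64 in connexins, -0.12 in cadherins, -0.17 in claudins and -0.44 in zonula occludens genes, beside -0.01 over all genes. All 8 called members had groups that did not overlap in CPM, as did 7 members that were not called, so that 38.5% of the tested members were without overlap beside 35.4% of all genes. Of these 15 members, 7 were higher (18.4% of all genes) and 8 lower (17.0% of all genes) in MCT lungs. Gja3 and Cldn9, both among the 7 higher, passed the filter on low counts through the MCT group only. Gja3 also enters the counts of called members and of called connexins, so some difference was built into these counts. Leaving out any 1 sample left between 0 and 4 members higher and between 0 and 3 lower, while the counts over all genes then ranged from 481 to 1394 higher and from 212 to 978 lower. No member was called higher without MCT replicate 3 or control replicate 2, and none was called lower without MCT replicate 1.

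**Figure D1:**
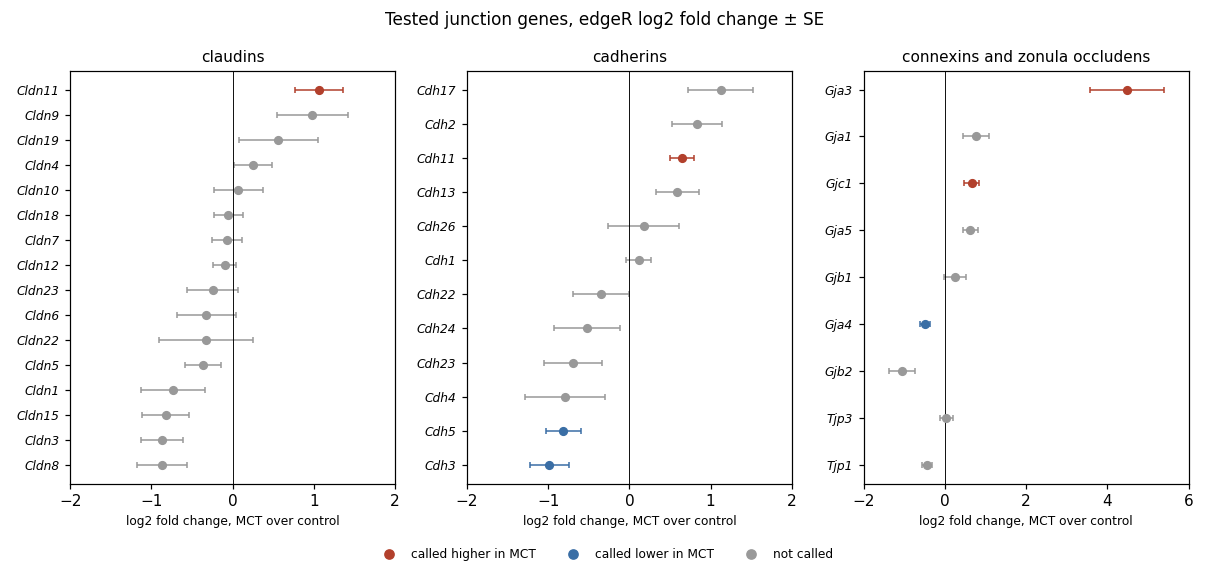
Log2 fold change (MCT over control) of tested members with its standard error, in panels by family. Red points are members called higher in MCT lungs, blue points those called lower and grey points those not called; the connexin panel has a wider axis because of Gja3 at 4.48.

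**Figure D2:**
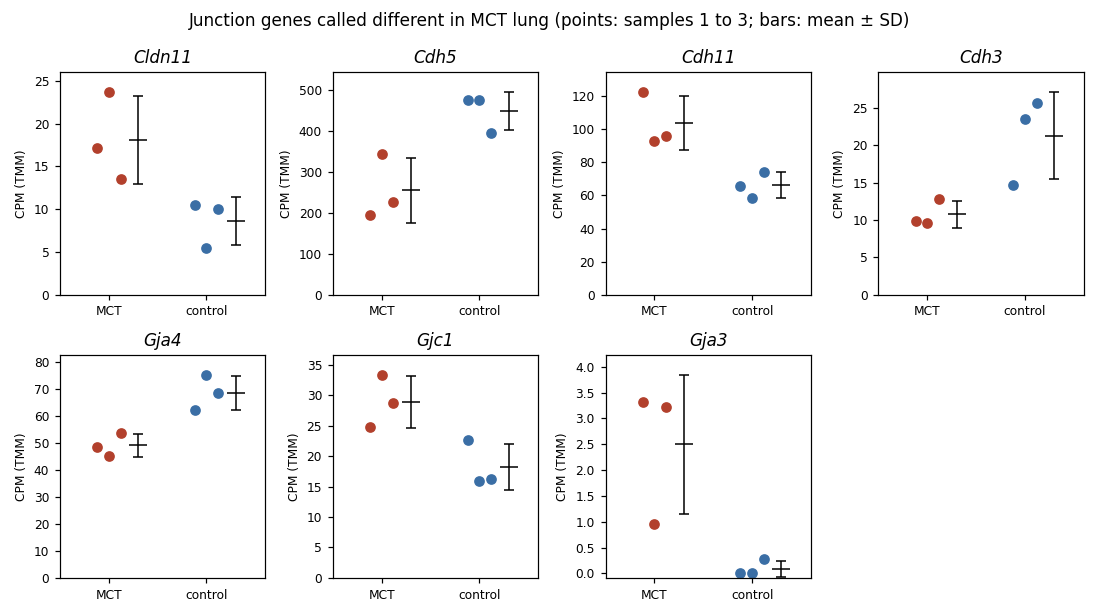
TMM-scaled CPM of 7 called members in each of 3 MCT and 3 control lungs, with the mean and SD beside the points. The groups do not overlap in any panel, and Gja3 lies at 0 CPM in 2 of the controls.

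Among cadherins, VE-cadherin fell while the mesenchymal cadherin Cdh11 rose and E-cadherin did not pass the test. Cdh5 encodes VE-cadherin, the adherens junction protein of endothelium, and was the most abundant cadherin per transcript length in control lungs. Cdh5 (ENSRNOG00000013324) had 194, 344 and 227 CPM in MCT lungs, against 476, 476 and 394 CPM in control lungs. The groups did not overlap, and MCT replicate 2 was the highest of the MCT lungs. Cdh5 fell by 0.82 on the log2 scale (SE 0.21, adjusted p = 0.0396, edgeR quasi-likelihood test). The call held without MCT replicate 2 and ended without any other sample (adjusted p = 0.0826 to 0.131). Beside it, the other 11 genes of the endothelial marker list summed to 1999, 3453 and 2357 CPM in MCT lungs and to 3946 to 4246 CPM in control lungs. In that list 4 of 11 genes fell and 0 rose, where 5.11% of all tested genes fell, and its median log2 fold change was -0.45. The difference in the sums came mostly from Calcrl, with means of 226 CPM in MCT and 976 CPM in control lungs, and Tek, with 103 and 534 CPM. Of the 11 estimates 3 were positive. Vwf had means of 409 CPM in MCT and 408.5 CPM in control lungs, and Emcn 201 and 161 CPM. Pecam1, an endothelial adhesion gene, had an estimate of 0.17 on the log2 scale (edgeR adjusted p = 0.76). The part of endothelial cell number in the Cdh5 value was not tested.

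Cdh11, the cadherin of fibroblasts and other mesenchymal cells, had 123, 92.8 and 95.8 CPM in MCT lungs, against 65.9, 58.3 and 74.1 CPM in control lungs. Every MCT lung lay above every control lung. Cdh11 (ENSRNOG00000013481) rose 1.57-fold (log2 fold change 0.65, SE 0.15, adjusted p = 0.0247, edgeR). The call held without MCT replicate 2 and ended without any other sample (adjusted p = 0.0518 to 0.0881). Markers of fibroblasts summed to 1193 to 1322 CPM in MCT lungs and 932 to 995 CPM in control lungs. Of 8 genes 2 were higher and 1 lower, beside 8.01% and 5.11% of all tested genes. The rise in the sum came mostly from Col1a1, with means of 464 CPM in MCT and 215 CPM in control lungs. Of the 8 estimates 5 were positive and 3 negative, and Pdgfra had means of 219 and 247 CPM and Dcn 92.0 and 126 CPM. The part of fibroblasts in the Cdh11 value was not tested.

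Cdh3, the gene of P-cadherin, had 9.83, 9.60 and 12.8 CPM in MCT lungs, against 14.6, 23.5 and 25.7 CPM in control lungs. The lowest control, replicate 1, lay just above the highest MCT lung. Cdh3 (ENSRNOG00000020129) fell by 0.99 on the log2 scale (SE 0.24, adjusted p = 0.0299, edgeR). This call ended without MCT replicate 1 or 2 or control replicate 2 or 3 (adjusted p = 0.0599 to 0.114), and on the log2(FPKM + 1) and log2(FPKM + 0.1) scales (adjusted p = 0.0538 and 0.0531, limma). The mesothelial marker list moved in the same direction, with 24.8 to 33.3 summed CPM in MCT lungs beside 114 to 134 CPM in control lungs. In it 5 of 6 genes were lower, beside 5.11% of all tested genes. Other lists also held lower calls and 0 higher, with 5 of 8 capillary endothelial, 3 of 9 alveolar type 1 and 3 of 8 alveolar type 2 genes lower. The part of any of these cell types in the Cdh3 value was not tested.

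E-cadherin, encoded by Cdh1, had 311, 222 and 304 CPM in MCT lungs, against 271, 238 and 265 CPM in control lungs. The groups overlapped, and the log2 fold change stood at 0.11 (SE 0.15, edgeR adjusted p = 0.673). N-cadherin, encoded by Cdh2, is the cadherin of muscle and nerve and stood at 6.49 ± 1.86 CPM in MCT lungs and 3.65 ± 0.920 CPM in control lungs (SD, n = 3 each). Its log2 fold change of 0.83 did not pass (adjusted p = 0.109, edgeR). Within each sample, the ratio of Cdh2 to Cdh1 in FPKM was 0.0271, 0.0297 and 0.0154 in MCT lungs and 0.0174, 0.0145 and 0.0109 in control lungs, so the groups overlapped and Cdh2 stayed a small fraction of Cdh1. FPKM, a count scaled to transcript length and library depth, is the authors' value and is used here wherever genes are compared per length. The ratio of Cdh11 to Cdh1 in FPKM was 0.335, 0.355 and 0.268 in MCT lungs and 0.207, 0.208 and 0.238 in control lungs, without overlap, as for Cdh11 alone. The pairs of genes set in ratios here and below were chosen by hand. No ratio was tested, and no share over other pairs of genes was computed. Cdh17, the cadherin of liver and intestine, had the largest positive estimate of the 12 tested cadherins, a log2 fold change of 1.12 (SE 0.40, adjusted p = 0.102, edgeR). Cdh13, which is anchored to the membrane by a lipid and binds adiponectin, had 0.59 (adjusted p = 0.169, edgeR). Like Cdh2, Cdh13 and Cdh17, the remaining tested cadherins were low, with means over all samples of 0.167 to 2.77 FPKM. None of these remaining cadherins was called. Their estimates were -0.80 for Cdh4, the R-cadherin gene, -0.70 for Cdh23, a cadherin of hair-cell tip links, -0.52 for Cdh24, -0.35 for Cdh22 and 0.18 for Cdh26. Cdh4 passed the filter on low counts through the control group only.

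In terms of composition, all cadherins together had 159.5, 167 and 159 FPKM in MCT lungs, against 205, 199.95 and 200.4 FPKM in control lungs. Both groups were narrow and did not overlap. Cdh5 made up 31.1%, 51.3% and 35.7% of this sum in MCT lungs and 57.0%, 59.8% and 52.1% in control lungs. Cdh1 made up 44.6%, 29.9% and 43.4% in MCT lungs and 29.4%, 26.9% and 31.1% in control lungs. Cdh11 made up 12.4% ± 2.27 in MCT lungs and 6.36% ± 0.938 in control lungs (SD, n = 3 each). Cdh1 was thus above Cdh5 per transcript length in MCT replicates 1 and 3, and Cdh5 above Cdh1 in MCT replicate 2 and all controls.

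**Figure D3:**
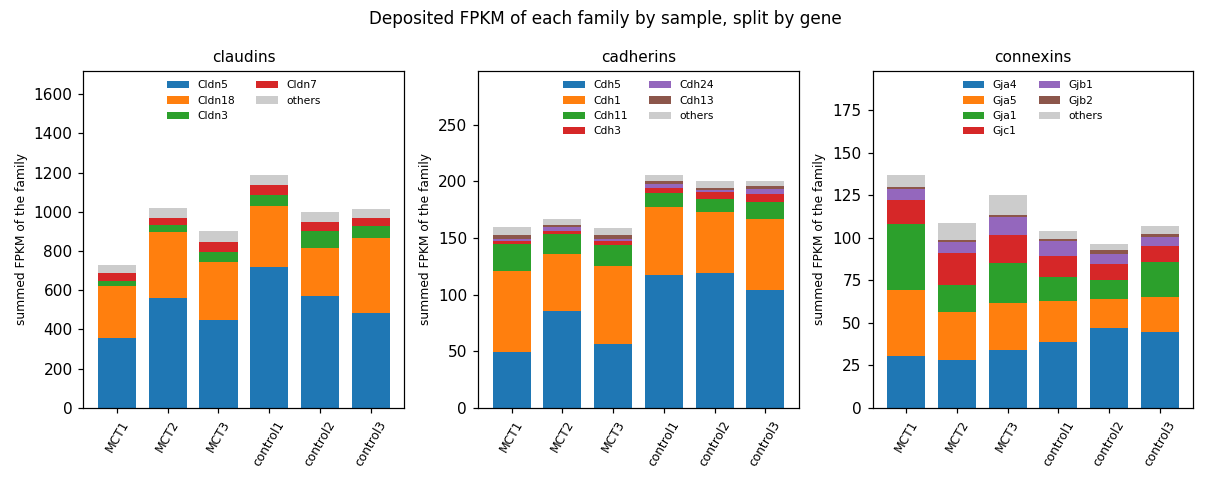
FPKM of claudins, cadherins and connexins by sample, stacked by gene, with MCT lungs to the left of control lungs. The cadherin bars stand at 159 to 167 FPKM in MCT lungs and 199.95 to 205 FPKM in control lungs, and the Cdh5 segment is smaller in every MCT lung than in every control lung.

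Connexins moved apart, with higher Gjc1 and Gja3 and lower Gja4. Gja4 and Gja5 encode the connexins that couple arterial endothelial cells, and their estimates had opposite signs. Gja4 (ENSRNOG00000014357) had 48.3, 45.3 and 53.8 CPM in MCT lungs, against 62.3, 75.1 and 68.4 CPM in control lungs. Every MCT lung lay below every control lung. Gja4 fell by 0.48 on the log2 scale (SE 0.12, adjusted p = 0.0366, edgeR), a call that held without control replicate 1 and ended without any other sample (adjusted p = 0.0656 to 0.121).

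Gja5 (ENSRNOG00000017484) had 119, 88.1 and 86.6 CPM in MCT lungs, against 76.5, 52.4 and 61.6 CPM in control lungs. The groups did not overlap, yet the log2 fold change of 0.63 (SE 0.18) missed the threshold (adjusted p = 0.0528, edgeR). Without control replicate 1 it was called (adjusted p = 0.0376, edgeR), as it was with DESeq2 (adjusted p = 0.0162) and without the filter on low counts (adjusted p = 0.0491). The ratio of Gja4 to Gja5 in FPKM was 0.788, 0.999 and 1.20 in MCT lungs, against 1.58, 2.78 and 2.15 in control lungs. Gja4 thus exceeded Gja5 per length in each control lung and in MCT replicate 3, and not in MCT replicates 1 and 2. Since each gene separated the groups in its own direction, their ratio had to separate them too. The other 5 arterial endothelial markers summed to 184 to 226 CPM in MCT lungs and 583 to 650 CPM in control lungs, with 4 lower and 0 higher (5.11% and 8.01% of all tested genes). Among them Efnb2, the ephrin of arterial endothelium, had 80.1 ± 9.33 CPM in MCT lungs and 306 ± 37.4 CPM in control lungs (SD, n = 3 each). Gja5 is also a connexin of atrial muscle. Cardiac muscle markers summed to 22.2 to 50.1 CPM in MCT lungs and 23.0 to 46.4 CPM in control lungs, and Nppa, the atrial peptide gene, was listed at 0 in every sample. The part of arterial endothelium or of cardiac muscle in the Gja4 and Gja5 values was not tested.

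The promoters of Gja4, Gja5 and Gja3 are printed because the estimates of these alpha connexins differed in sign and size. Each is the RefSeq sequence of build GRCr8 from 250 bases before to 50 bases after the gene start, written along the gene. Capitals mark the GC-box GGGCGG, the E-box CACCTG and the TATA box TATAAA on either strand, none of which overlap each other here. The positions are chr5:144920275-144920574 on the minus strand for Gja4, chr2:187290977-187291276 on the plus strand for Gja5 and chr15:35322356-35322655 on the minus strand for Gja3.
Gja4: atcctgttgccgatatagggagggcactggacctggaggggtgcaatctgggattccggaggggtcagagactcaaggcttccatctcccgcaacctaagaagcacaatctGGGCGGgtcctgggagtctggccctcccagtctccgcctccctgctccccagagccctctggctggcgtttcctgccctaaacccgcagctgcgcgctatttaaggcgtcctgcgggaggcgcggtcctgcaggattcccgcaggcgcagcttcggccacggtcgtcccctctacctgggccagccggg
Gja5: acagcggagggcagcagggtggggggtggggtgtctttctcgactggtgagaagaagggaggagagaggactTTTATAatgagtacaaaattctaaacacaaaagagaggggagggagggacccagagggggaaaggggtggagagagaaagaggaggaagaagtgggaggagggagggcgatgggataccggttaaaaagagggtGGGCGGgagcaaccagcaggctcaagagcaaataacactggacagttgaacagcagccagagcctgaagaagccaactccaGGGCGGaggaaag
Gja3: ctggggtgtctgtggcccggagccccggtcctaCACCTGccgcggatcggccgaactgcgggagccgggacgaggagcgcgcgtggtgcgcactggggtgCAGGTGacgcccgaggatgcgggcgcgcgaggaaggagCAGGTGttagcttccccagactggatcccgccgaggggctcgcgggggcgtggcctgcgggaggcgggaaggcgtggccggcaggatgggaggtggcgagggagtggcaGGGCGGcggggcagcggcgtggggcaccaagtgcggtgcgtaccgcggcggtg
Gja4 holds 1 GC-box and no E-box, Gja5 holds 2 GC-boxes and 1 TATA box, and Gja3 holds 3 E-boxes and 1 GC-box. A promoter was matched by symbol for 25 of the 39 tested members. The GC-box was in 16 of these 25 and in 34.9% of all 27457 promoters of that length. The E-box was in 7 of the 25 and in 18.7% of all, and the TATA box was in 1 of the 25 and in 14.3% of all. The median G and C content was 59.7% in the members and 52.3% in all promoters. The other motifs searched on both strands were Ets CGGAAG (1 of the 25, 17.4% of all), Tead GGAATG (2, 13.9%), Sox AACAAT (3, 11.6%), Rbpj GTGGGAA (0, 6.19%) and AP-1 TGANTCA (2, 7.33%). All 25 members had passed the filter on low counts and the full set of promoters was not filtered, so the sets are unlike. These matches describe the letters in this window only.

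Gjc1, the gamma connexin of vascular smooth muscle, had 24.8, 33.3 and 28.8 CPM in MCT lungs, against 22.6, 15.9 and 16.3 CPM in control lungs. The highest control, replicate 1, lay just under the lowest MCT lung. Gjc1 (ENSRNOG00000048838) rose 1.58-fold (log2 fold change 0.66, SE 0.19, adjusted p = 0.0495, edgeR), close to the threshold. The call held without control replicate 1 and ended without any other sample (adjusted p = 0.0568 to 0.162). Smooth muscle markers summed to 1605, 1121 and 1527 CPM in MCT lungs and to 832 to 963 CPM in control lungs, with 4 of 7 genes higher (8.01% of all tested genes). Their part in the Gjc1 value was not tested.

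Gja3, best known as a connexin of the lens, had the largest fold change of the tested members and the lowest level of those called. Its counts were 49, 16 and 46 in MCT lungs, against 0, 0 and 5 in control lungs. In CPM these were 3.32, 0.948 and 3.22 in MCT lungs and 0, 0 and 0.270 in control lungs. Gja3 (ENSRNOG00000008847) passed the filter on low counts through the MCT group only, so some difference was built into its being tested. Its log2 fold change stood at 4.48 (SE 0.92, edgeR adjusted p = 0.0172), and it became 8.21 without control replicate 3, the control with counts. The call ended without MCT replicate 3 (adjusted p = 0.052) or control replicate 2 (adjusted p = 0.0659).

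Gja1 encodes the most widely expressed connexin, of smooth muscle, fibroblasts and epithelium. It had 119, 49.6 and 72.9 CPM in MCT lungs, against 44.8, 36.3 and 61.1 CPM in control lungs. MCT replicate 2 fell inside the control range, and the log2 fold change of 0.76 (SE 0.31) did not pass (adjusted p = 0.139, edgeR). Without MCT replicate 2 it was called (adjusted p = 0.0368, edgeR). Of the beta connexins of epithelium, Gjb1 had 0.25 (adjusted p = 0.563, edgeR) and Gjb2 had -1.05 (adjusted p = 0.0617, edgeR) on the log2 scale. Gjb2 counts were 23 to 34 in MCT lungs and 46 to 72 in control lungs, without overlap, and DESeq2 called it (adjusted p = 0.0354).

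All connexins together had 137, 109 and 125 FPKM in MCT lungs, against 104, 96.4 and 107 FPKM in control lungs. The lowest MCT lung lay just above the highest control. Gja4 made up 25.1% ± 2.38 of this sum in MCT lungs and 42.5% ± 5.89 in control lungs (SD, n = 3 each), where it was the most abundant connexin per length. Gja5 made up 25.6% ± 3.03 in MCT lungs and 20.1% ± 3.01 in control lungs.

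Claudins were the most abundant junction family and showed 1 call. All claudins together had 729.6, 1017 and 901 FPKM in MCT lungs, against 1186, 998 and 1014 FPKM in control lungs, and MCT replicate 2 lay inside the control range. Most of this sum came from Cldn5, the claudin of endothelium, and Cldn18, the claudin of alveolar epithelium. Cldn5 made up 51.1% ± 3.36 of the sum in MCT lungs and 55.0% ± 6.65 in control lungs (SD, n = 3 each). Cldn18 made up 34.2% ± 2.40 in MCT lungs and 29.7% ± 7.10 in control lungs.

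Cldn5 had 502, 807 and 644 CPM in MCT lungs, against 1042, 816 and 664 CPM in control lungs. MCT replicates 1 and 3 lay below every control and MCT replicate 2 within the control range, and the log2 fold change of -0.37 (SE 0.22) did not pass (adjusted p = 0.306, edgeR). The ratio of Cdh5 to Cldn5 in FPKM was 0.140, 0.154 and 0.126 in MCT lungs, against 0.163, 0.210 and 0.217 in control lungs, without overlap between the groups, as for Cdh5 alone. Cldn18 had 412, 529 and 450.3 CPM in MCT lungs, against 488, 386 and 570.4 CPM in control lungs. Its groups overlapped, and its log2 fold change stood at -0.05 (SE 0.18, edgeR adjusted p = 0.868), a sign that turned without MCT replicate 1 (0.028) or control replicate 3 (0.088).

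Cldn11, a claudin of myelin and of Sertoli cells in the testis, was the called member of the family. It had 17.2, 23.7 and 13.5 CPM in MCT lungs, against 10.4, 5.44 and 10.03 CPM in control lungs. Control replicate 2 was the lowest, and the other controls lay close under the lowest MCT lung. Cldn11 (ENSRNOG00000010263) rose 2.09-fold (log2 fold change 1.07, SE 0.29, adjusted p = 0.047, edgeR). The call ended without any 1 of the 6 samples (adjusted p = 0.0524 to 0.114) and with limma-voom and both FPKM scales (adjusted p = 0.0506 to 0.0555), so it stands at the edge of the threshold. Its promoter, printed as the remaining called member with a matched RefSeq promoter, lies at chr2:114149490-114149789 on the minus strand of GRCr8, with the same capitals.
Cldn11: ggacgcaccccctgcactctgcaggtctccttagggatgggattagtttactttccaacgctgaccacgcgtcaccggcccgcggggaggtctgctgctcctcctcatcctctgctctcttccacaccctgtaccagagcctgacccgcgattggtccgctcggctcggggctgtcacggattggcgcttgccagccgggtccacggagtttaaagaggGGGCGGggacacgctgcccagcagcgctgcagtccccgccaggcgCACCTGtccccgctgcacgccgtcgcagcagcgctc
It holds 1 GC-box and 1 E-box.

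None of the claudins of the alveolar and airway epithelium described next was called. Cldn3, a claudin of alveolar type 2 cells, had 36.5, 50.2 and 77.2 CPM in MCT lungs, against 89.7, 122 and 87.8 CPM in control lungs. The groups did not overlap, but the log2 fold change of -0.87 (SE 0.26) did not pass (adjusted p = 0.06, edgeR). Cldn3 was called without MCT replicate 3 (adjusted p = 0.0212, edgeR), with limma-voom (adjusted p = 0.0491) and with DESeq2 (adjusted p = 0.00978). Cldn4, its relative in the same cells, had an estimate of 0.25 on the log2 scale (SE 0.24, edgeR adjusted p = 0.53). The ratio of Cldn3 to Cldn4 in FPKM was 4.50, 3.90 and 6.17 in MCT lungs, against 10.1, 10.4 and 11.3 in control lungs, without overlap, as for Cldn3 alone. Cldn7, a claudin of airway and alveolar epithelium, had 45.6, 42.3 and 65.1 CPM in MCT lungs, against 58.4, 56.5 and 45.8 CPM in control lungs, and a log2 fold change of -0.07 (adjusted p = 0.832, edgeR). That sign turned without MCT replicate 1 or 2. In the alveolar type 2 marker list 3 of 8 genes fell and 0 rose, where 5.11% of all tested genes fell. The summed levels given above did not overlap, but most of each sum came from 2 genes that were not called. These were Sftpc, with means of 8917 CPM in MCT and 13396 CPM in control lungs (adjusted p = 0.209, edgeR), and Sftpa1, with 6082 and 5526 CPM. The part of type 2 cells in the Cldn3 value was not tested.

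Of the less abundant claudins, Cldn15, which forms cation pores in the intestine, had 3.46, 7.71 and 5.46 CPM in MCT lungs, against 10.2, 9.91 and 9.49 CPM in control lungs. These did not overlap, and the log2 fold change stood at -0.83 (SE 0.29, edgeR adjusted p = 0.0942). Cldn15 was called without MCT replicate 2 (adjusted p = 0.0271, edgeR) and with DESeq2 (adjusted p = 0.0443). Cldn8, a claudin of the kidney tubule, had an estimate of -0.87 on the log2 scale (edgeR adjusted p = 0.0996). DESeq2 called Cldn8 lower (adjusted p = 0.0487). Cldn1 had 9.83, 10.1 and 11.3 CPM in MCT lungs, against 26.0, 18.9 and 7.12 CPM in control lungs. Control replicate 3 alone lay under the MCT lungs, and without it Cldn1 was called lower, with a log2 fold change of -1.11 (adjusted p = 0.0302, edgeR). The remaining tested claudins, Cldn6, Cldn9, Cldn10, Cldn12, Cldn19, Cldn22 and Cldn23, had log2 fold changes between -0.33 and 0.98 and none was called. Cldn9 passed the filter through the MCT group only.

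The zonula occludens scaffolds were not called, though Tjp1 lay at the threshold. Tjp1 had 245, 257 and 236 CPM in MCT lungs, against 312, 318 and 371 CPM in control lungs. Every MCT lung lay below every control. Its log2 fold change stood at -0.44 (SE 0.12, edgeR adjusted p = 0.0516), and it was called with DESeq2 (adjusted p = 0.00847), limma-voom (adjusted p = 0.0489) and log2(FPKM + 1) (adjusted p = 0.0496, limma). These were the only 3 calls of Tjp1 in 16 alternative fits. It was not called with any 1 sample left out (adjusted p = 0.0607 to 0.18, edgeR). Tjp3, a scaffold found mainly in epithelium, had 36.5, 34.3 and 47.5 CPM in MCT lungs, against 37.7, 42.2 and 35.3 CPM in control lungs, and a log2 fold change of 0.04 (adjusted p = 0.896, edgeR). Together these scaffolds had 65.0, 74.8 and 71.0 FPKM in MCT lungs, against 88.6, 85.1 and 102 FPKM in control lungs, without overlap.

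Of the 34 members under the filter, 13 had no count in any sample. Among these were Cldn14, Cldn16, Cldn24, Cldn34a, Cldn34b, Cldn34c4 and Cldn34d, the cadherins Cdh10, Cdh12 and Cdh18, and the connexins Gja10 and Gje1. The highest count of any member under the filter was 19, in Cdh9. Cdh9 had 0 counts in each MCT lung, against 19, 2 and 14 counts in control lungs. It was 11.4-fold lower in MCT lungs when 3 counts in the group total stood in for the 0. The other group's total was taken as exact, so the spread between samples is left out of this value. Cdh8 had 9, 11 and 2 counts in MCT lungs, against 0 counts in each control lung, and was 7.51-fold higher when reckoned in the same way. Without the filter both were called (adjusted p = 0.0323 for Cdh9 and 0.0425 for Cdh8, edgeR). Both encode cadherins known from neurons. Neither passed the filter with every sample kept, and these p-values come only from the fit with the filter removed. With control replicate 2 left out, Cdh9 passed the filter and was called lower. None of the remaining members under the filter was called without it. The highest count in any sample was 4 for Cldn2, 3 for Cldn20, 2 for Cldn17 and 1 for Cldn25 and Cldn34e. Among cadherins it was 12 for Cdh19, 9 for Cdh15, 6 for Cdh6, 5 for Cdh20, 4 for Cdh16 and 2 for Cdh7. For connexins named here it was 9 for Gjb5, 8 for Gjd3, 6 for Gjc3, 5 for Gjb6, 2 for Gjd4 and 1 for Gjd2. Counts cover counting error only, since reads carry no molecular identifiers.

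Several members are neighbours in the genome, and their values differed in sign. In RefSeq's GRCr8 table of protein-coding genes, 5 neighbouring pairs had both genes tested. Cdh5 and Cdh11 on chromosome 19 were called in opposite directions, at -0.82 and 0.65 on the log2 scale. Cdh3 and Cdh1, also on chromosome 19, had -0.99 and 0.11, with Cdh3 called. Cldn3 and Cldn4 on chromosome 12 had -0.87 and 0.25, Cldn6 and Cldn9 on chromosome 10 had -0.33 and 0.98, and Cdh26 and Cdh4 on chromosome 3 had 0.18 and -0.80, none of them called. In each pair the estimates had opposite signs, a pattern noticed after the values were seen, and no test of the difference was run. Cldn9 passed the filter on low counts through the MCT group only and Cdh4 through the control group only, so their signs were in part set by the filter. The sign of Cdh26 turned without MCT replicate 3 (-0.27) or control replicate 3.

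**Figure D4:**
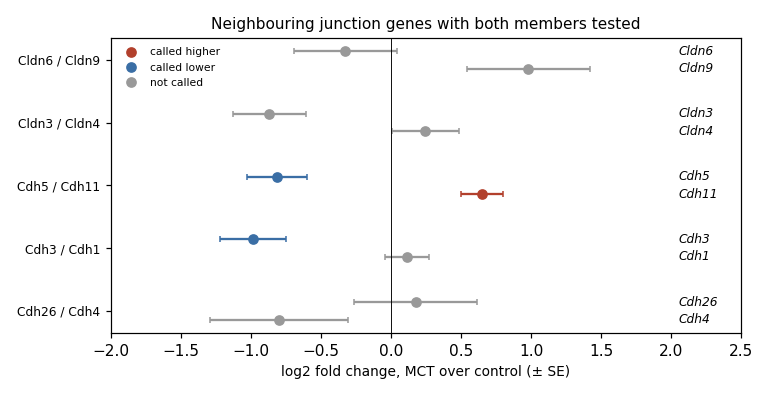
Log2 fold change (MCT over control) with its standard error for the 5 pairs of neighbouring members with both genes tested. Cdh5 (-0.82) and Cdh11 (0.65) are the pair called in opposite directions.

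The other components of these junctions were read from 5 lists of partner genes. Over the lists 68 genes were tested, of which 3 rose, 11 fell and 54 did not pass, where 8.01% of all tested genes rose and 5.11% fell. The share called in either direction was 24.0% of the tight junction partners, 10.5% of the adherens junction partners, 33.3% of the desmosome genes, 3 of the 4 pannexins and connexin partners and 0 of the 11 regulators, beside 13.1% of all genes. Among tight junction partners 1 of 25 rose and 5 fell, and the median log2 fold change was -0.37 beside -0.01 over all genes. The adhesion molecules Jam2 and Jam3 moved in opposite directions. Jam2 had 82.0, 148 and 94.4 CPM in MCT lungs, against 243, 215 and 209 CPM in control lungs, and fell by 1.04 on the log2 scale (adjusted p = 0.0173, edgeR). Jam3 had 55.8, 68.8 and 58.1 CPM in MCT lungs, against 35.3, 32.6 and 29.7 CPM in control lungs, and rose by 0.91 (adjusted p = 0.00483, edgeR). The Jam3 call held without any 1 sample, and that of Jam2 ended without MCT replicate 3 or control replicate 2 or 3 (adjusted p = 0.0537 to 0.0664). The remaining genes that fell are polarity proteins and scaffolds at the tight junction.

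Prkci, the atypical protein kinase C of the polarity complex, had 129, 142 and 138 CPM in MCT lungs, against 201, 212 and 243 CPM in control lungs. It fell by 0.68 (adjusted p = 0.0102, edgeR), a call that held without any 1 sample. Its binding partner Pard3 fell by 0.62 (adjusted p = 0.0277, edgeR), the scaffold Patj by 0.67 (adjusted p = 0.0145) and the scaffold Magi3 by 0.82 (adjusted p = 0.0185), all on the log2 scale. The calls of Pard3, Patj and Magi3 each ended without MCT replicate 1 and without control replicate 3, that of Pard3 also without control replicate 1 or 2, and those of Patj and Magi3 also without MCT replicate 3 (adjusted p = 0.0504 to 0.1). Esam, an endothelial adhesion molecule and the most abundant of this list per length, had -0.27 (adjusted p = 0.315, edgeR).

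Among adherens junction partners 0 of 19 rose and 2 fell. Ptprb, the endothelial phosphatase that binds VE-cadherin, had 29.97, 45.1 and 35.7 CPM in MCT lungs, against 88.0, 105 and 127 CPM in control lungs, and fell by 1.53 (adjusted p = 0.00255, edgeR). Afdn, the gene of afadin, fell by 0.64 (adjusted p = 0.0221, edgeR), a call that ended without MCT replicate 1 or 3 or control replicate 1 or 3 (adjusted p = 0.0601 to 0.0917). Ctnna1, the gene of alpha-catenin, which links cadherins to actin, had -0.02 on the log2 scale (adjusted p = 0.96, edgeR).

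Among desmosome genes 1 of 9 rose and 2 fell. Dsc2, a desmosomal cadherin outside the classical family, had 17.7, 21.5 and 18.6 CPM in MCT lungs, against 8.38, 8.04 and 8.30 CPM in control lungs. It rose by 1.22 on the log2 scale (SE 0.16, adjusted p = 0.00295, edgeR), and the call held without any 1 sample. Perp fell by 0.70 (adjusted p = 0.0144, edgeR), and lost its call when control replicate 3 was left out (adjusted p = 0.0647), and was the most abundant of the list per length. Dsp, the gene of desmoplakin, fell by 0.55 (adjusted p = 0.0494, edgeR), held its call without control replicate 2 and lost it without any other sample (adjusted p = 0.0868 to 0.167), and lost it under 7 of 10 other settings (adjusted p = 0.0504 to 0.0975).

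Of 4 tested pannexins and connexin partners, 1 rose and 2 fell. Dbn1, an actin-binding protein known to bind connexin, had 33.7, 27.6 and 30.5 CPM in MCT lungs, against 14.04, 13.5 and 12.2 CPM in control lungs, and rose by 1.21 (adjusted p = 0.0023, edgeR). Cnst, which takes part in connexin transport, fell by 0.61 (adjusted p = 0.0204, edgeR), and Panx2 fell by 0.93 (adjusted p = 0.0195, edgeR). The Dbn1 call held without any 1 sample. The call of Cnst held without MCT replicate 2 and that of Panx2 without MCT replicate 2 or control replicate 1, and both ended otherwise (adjusted p = 0.0515 to 0.0803). Of the 11 regulators of cadherin and claudin transcription, among them the repressors Snai1, Snai2, Zeb1 and Zeb2, none was called in either direction by edgeR or DESeq2, and 1 had an unadjusted p under 0.05. Esrp2, a splicing regulator of epithelium and the most abundant of these per length, had an estimate of -0.32 on the log2 scale (edgeR adjusted p = 0.175). Snai1 was at 34.4 ± 5.59 CPM in MCT lungs and 28.7 ± 5.55 CPM in control lungs (SD, n = 3 each).

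**Figure D5:**
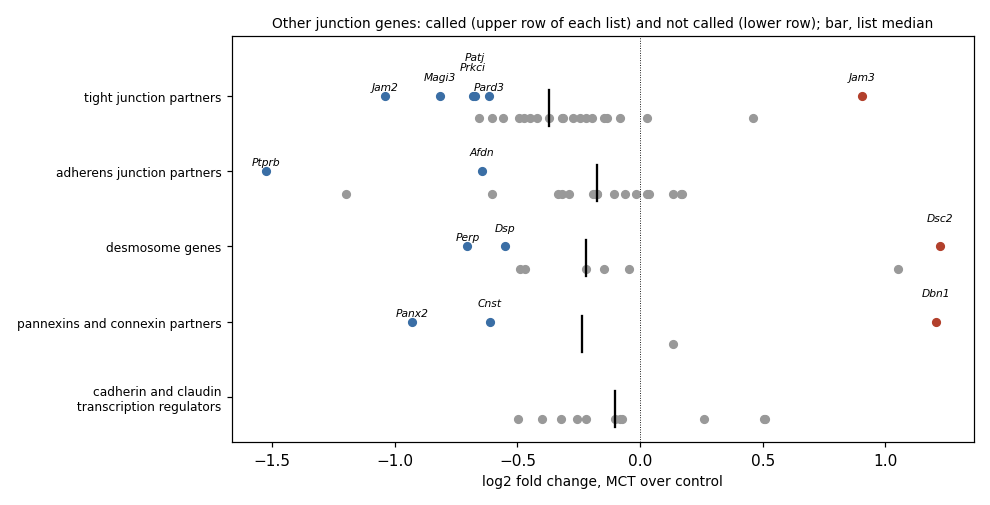
Log2 fold change (MCT over control) of tested partner genes in 5 lists. Called genes are named in the upper row of each list (red higher, blue lower in MCT lungs), those not called are grey in the lower row, and the black bar is the list median, -0.37 for the tight junction partners.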

How the data were processed

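RNA-seq of whole rat lung was deposited as 1 table with an estimated count and an FPKM value per gene and sample. Reads were aligned with Bowtie2 and TopHat2 2.0.3.12 to Rnor_6.0, per the submitters' processing notes; the counting tool and the annotation release are not named in the sources used here. Between 90.7% and 91.5% of the deposited estimated counts above 0 were whole numbers, and all were rounded for the tests. FPKM values were computed by the authors and used as deposited.

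Genes passed edgeR's filterByExpr (minimum count 10, minimum total 15), and all 6 samples were TMM-normalized and tested by quasi-likelihood in edgeR 4.0.16 under R 4.3.3. The standard error is the log2 fold change divided by the root of the F statistic. The test was checked on simulated counts. Alternatives used DESeq2 1.42.0, limma 3.58.1, other scalings and filters, a replicate block and each sample left out. Values in every sample are given for called members and the 3 most abundant per family, and every called partner is named. A few members enter the counts and are not reported here. Other members with sample values (such as Cldn1 and Cldn15) were chosen after their values were seen. The members and lists were chosen with earlier results of these data known. Promoters and neighbours come from RefSeq (GRCr8), matched by symbol. Its coordinates were not mixed with Rnor_6.0. Whether the libraries keep strand is not given, and reads of overlapping genes cannot be told apart. Cdh4 had a further row, an assembled locus, that was left out and did not change any call when added.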

Additional observations from a re-analysis of the deposited data

How the results depend on the processing

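Same-numbered samples did not deviate together (correlations of -0.0583, -0.0695 and -0.00241 for replicates 1, 2 and 3), and no MCT sample correlated best with the control of its own number, so the numbers are not taken as pairs. With the replicate block, 3 junction members were higher and 2 lower: claudins higher became 0 and connexins lower became 0, Cldn11, Gja4 and Gjc1 were among those that lost their calls and Gja5 gained one. Over all genes the block left 917 higher and 546 lower.

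Median-of-ratios scaling, summed counts as library size and summed ids left the same 8 members called. Without the filter 2 cadherins were higher. With limma-voom 5 members were lower, among them 1 claudin and 1 zonula occludens gene, and claudins higher became 0. On log2(FPKM + 1) claudins higher became 0, cadherins lower 1 and zonula occludens genes lower 1, and on log2(FPKM + 0.1) claudins higher became 0 and cadherins lower 1. DESeq2 called 1182 genes lower, and 8 members lower: 3 claudins, 2 connexins, 1 zonula occludens gene and the same 2 cadherins. The stricter filter removed Gja3.

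With a sample left out, members higher ranged from 0 to 4 and lower from 0 to 3. Claudins higher stayed at 0, and claudins lower, cadherins higher, cadherins lower, connexins lower and zonula occludens genes lower each ranged from 0 to 1. Connexins higher ranged from 0 to 4. Genes higher ranged from 481 to 1394 and genes lower from 212 to 978. Signs turned with a sample left out in 9 members that were not called, whose log2 fold changes then ranged from -0.27 to 0.50 (Cdh26), -0.26 to 0.33 (Cldn10), -0.19 to 0.0028 (Cldn12), -0.19 to 0.088 (Cldn18), -0.021 to 0.84 (Cldn19), -0.97 to 0.086 (Cldn22), -0.28 to 0.047 (Cldn7), -0.0012 to 0.48 (Gjb1) and -0.11 to 0.13 (Tjp3). Fits with a sample left out hold fewer samples. No called member changed sign. Depth limits Gja3, Cdh8 and Cdh9, which rest on at most 49 counts per sample.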
